A study of Mus musculus with 9 samples.

Results

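Tight junctions are the seals near the top of epithelial cells. They were followed here through 9 genes chosen by name, with earlier results of these data known. These were the claudins Cldn1, Cldn3, Cldn4, Cldn7 and Cldn8, occludin (Ocln), the scaffolds Tjp1 and Tjp3, and F11r. All 9 had 1 row with a single gene symbol on the arrays, out of 19938 genes measured. RNA was compared among 3 stages of isolating mammary epithelial cells from wild-type C3H female mice aged 8 to 9 weeks, with 3 arrays per stage. Untrypsinized cells had been released from fat with collagenase and met no trypsin. Trypsinized cells had a trypsin digestion as well. Mock sorted cells had both and were put through a mock fluorescence-activated cell sort. All 3 groups share the collagenase step, and no group is intact tissue. The arrays are labelled as biological replicates, with no animal or pool named, and the p-values below cover the spread among these arrays alone, whether biological or technical.

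In a tight junction, claudins form the paracellular barrier and its ion-selective pores, occludin and the immunoglobulin-like junctional adhesion molecules lie in the same strands or beside them, and the zonula occludens scaffolds tie the strands to the actin cytoskeleton. In the mammary gland these junctions join luminal cells and separate milk from blood, and they tighten around the start of lactation. Low levels of several claudins give the claudin-low class of human breast tumours its name. The arrays measure RNA only, and junction proteins were not measured.

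Log2 intensities, taken as log2 of the deposited intensity plus a pseudocount of 1, had Pearson correlations of 0.987 to 0.99 within groups and 0.975 to 0.989 between them. The median intensity over all rows was 344.9 to 375.5 on untrypsinized, 389.2 to 408.2 on trypsinized and 400.3 to 402.9 on mock sorted arrays. Untrypsinized arrays thus had the lowest medians. The upper quartiles overlapped among the groups, at 1276.3 to 1309.4, 1308.0 to 1340.6 and 1281.4 to 1312.6 in the same order. The mean level of the 9 genes was 10.86 to 13.51, above the 95th percentile of 1027 olfactory receptor genes (8.2), a yardstick for genes these cells are not known to use. The labelled cell type, epithelial cells, was checked against markers: all 11 luminal and all 10 basal markers had group means above this yardstick in every group. So did 12 of 12 endothelial and 7 of 7 mural markers in untrypsinized cells (11 and 7 in mock sorted cells), 7 of 7 fibroblast markers in every group, 6, 6 and 5 of 8 adipocyte markers and 5, 7 and 7 of 8 lymphocyte markers in untrypsinized, trypsinized and mock sorted cells. No marker was at an intensity of 0. Summed intensity of the 12 endothelial markers was 32287 to 37072 in untrypsinized, 25922 to 26443 in trypsinized and 13155 to 15521 in mock sorted arrays, and that of the 8 lymphocyte markers was 3345 to 3565, 5925 to 14804 and 5188 to 12751. The lymphocyte sum stood apart in replicate 1 of the trypsinized group (14804, the others 5925 and 5973) and of the mock sorted group (12751, the others 5323 and 5188), and counts of the junction genes are also given without both. Fewer cells of a type and less RNA per cell cannot be told apart in such samples.

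After trypsin, 4 of the 9 genes rose on the deposited scale: Cldn1, Cldn3, Cldn4 and Ocln, each by 1.15 to 1.21-fold. With every array given the same median intensity these 4 kept their upward direction and none passed the test, as detailed further on. None of the 9 was called lower, and the counts were the same without replicate 1 of the trypsinized and mock sorted groups. The scaffolds, F11r, Cldn7 and Cldn8 did not pass the test. A gene passed at an adjusted p of 0.05 or below in limma, with Benjamini-Hochberg adjustment over all 19938 genes. No gene of the set reached the minimum of 1.5-fold that the submitters' design text asks for (0 of 9, where 1.46% of all genes were called with that minimum, 0.532% higher and 0.933% lower). Without a minimum fold, 25.4% of all genes were called, 13.9% higher and 11.5% lower, against 4 of 9 (44.4%) higher and 0 lower here; among the 4134 genes at least as bright as the dimmest of the set, Tjp3, 14.4% were called higher and 13.8% lower. With an unadjusted p under 0.05 as the rule, the same 4 of 9 passed, where 39.7% of all genes did. The groups did not overlap for 5 of the 9 genes in the higher direction and for 1 in the lower, where this held for 25% and 19.4% of all genes. Because the 9 genes were chosen with earlier results of these data known, these shares describe the set and are no test of it.

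Cldn1, a claudin needed for the water barrier of mouse skin, read 11.92 on each untrypsinized array at 2 decimals, 12.18, 12.23 and 12.18 on trypsinized arrays, and 12.23, 12.22 and 12.18 on mock sorted arrays. The untrypsinized arrays all lay below the other 6, which overlapped each other. From untrypsinized to trypsinized cells the mean log2 level of Cldn1 went from 11.92 ± 0.002 to 12.20 ± 0.03 (SD, n = 3 arrays), a rise of 0.28 (SE 0.033, limma adjusted p = 0.00135). This was 1.21-fold with a 95% interval of 1.15 to 1.28, and 90.7% of genes changed less or fell.

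Cldn3 and Cldn4 are the claudins that the enterotoxin of Clostridium perfringens uses as receptors, and their genes lie close together on chromosome 5. Cldn4 read 13.37, 13.34 and 13.34 on untrypsinized, 13.53, 13.57 and 13.58 on trypsinized, and 13.61, 13.61 and 13.62 on mock sorted arrays. The 3 groups did not overlap. Its rise after trypsin was 0.21 (SE 0.032, adjusted p = 0.00344). Cldn3 read 12.12, 12.15 and 12.02 on untrypsinized, 12.28, 12.30 and 12.34 on trypsinized, and 12.31, 12.39 and 12.35 on mock sorted arrays. Untrypsinized arrays were lowest here as well, and the other groups overlapped. Cldn3 rose by 0.20 after trypsin (SE 0.045, adjusted p = 0.0142), and without trypsinized replicate 3 its change was 0.19 and did not pass (adjusted p = 0.053).

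Ocln, whose protein spans the membrane within the junction strands, read 11.06, 11.18 and 11.08 on untrypsinized, 11.28, 11.36 and 11.34 on trypsinized, and 11.35, 11.43 and 11.35 on mock sorted arrays. All untrypsinized arrays were below all others. Ocln rose by 0.22 after trypsin (SE 0.046, adjusted p = 0.0115), or 1.16-fold with a 95% interval of 1.08 to 1.25.

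**Figure D1:**
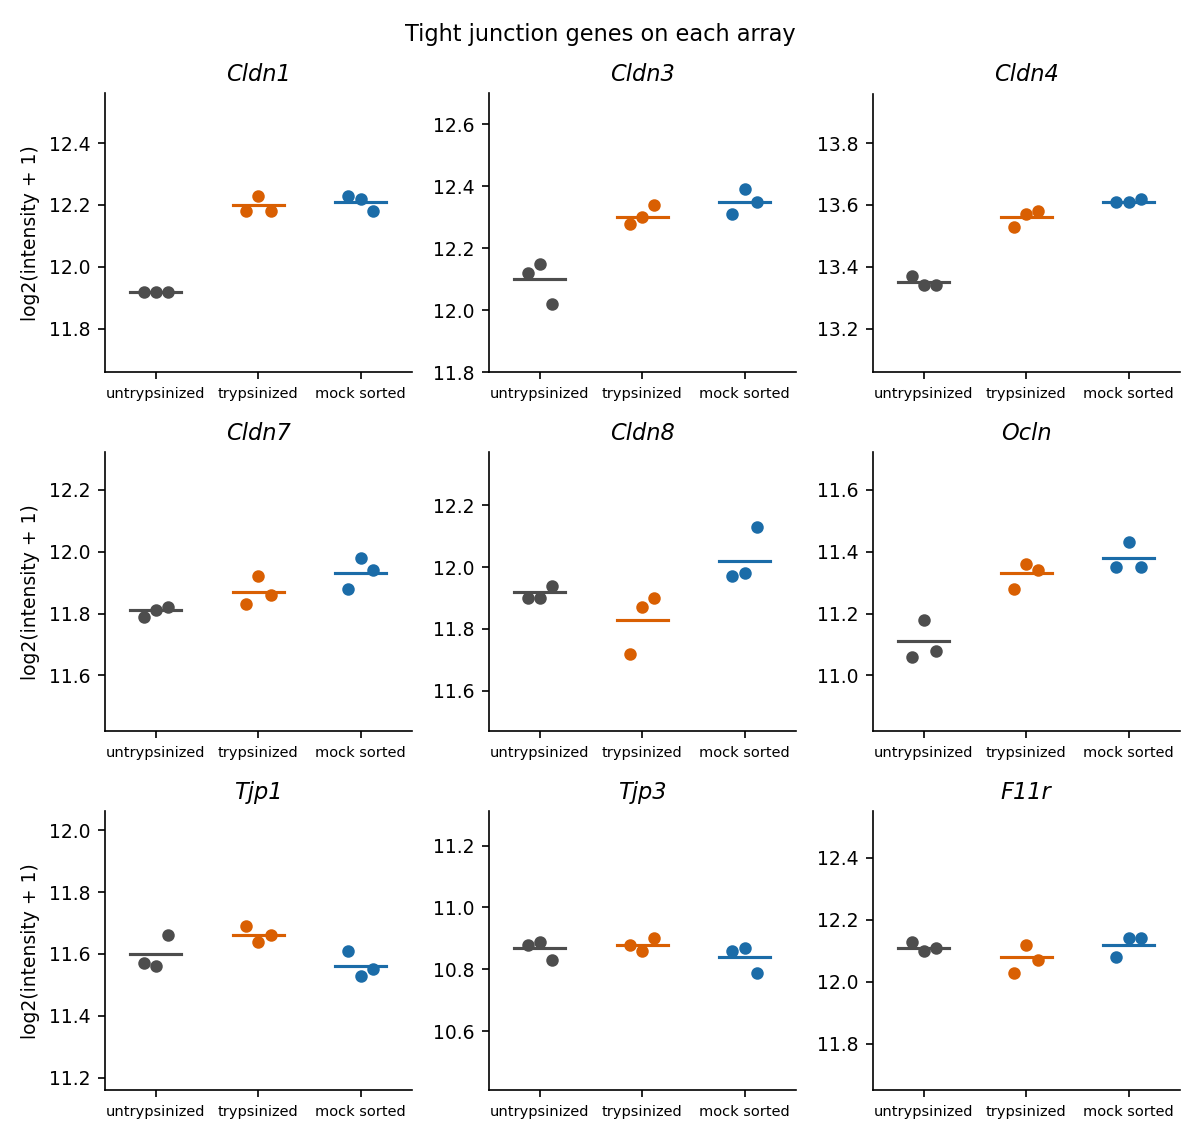
Level of each tight junction gene, as log2(intensity + 1), on the 3 arrays of each group; points are arrays, horizontal lines are group means, and each panel spans the same height around its own mean. The untrypsinized arrays lie below all others for Cldn1, Cldn3, Cldn4 and Ocln, while Tjp3 and F11r overlap among all groups.

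The promoters of the 4 genes that rose are shown so that the stretch before each start can be compared; they are the 250 bases before an annotated start in RefSeq (GRCm38.p6), 5′ to 3′ on the gene's strand. Ocln has 2 annotated starts, and the stretch shown is that of the first listed; the stretch before the other overlaps it and holds 2 matches of CAGGTG. Capitals mark 3 short motifs that were searched on both strands and chosen after the sequences were seen: CAGGTG, which is CACCTG on the other strand and is the E-box bound by Snail and Zeb repressors of epithelial genes. The second is TGANTCA, the AP-1 site, and the last is GGGCGG, the GC box, which is CCGCCC on the other strand.
Cldn1 promoter, chr16:26371840-26372089, minus strand: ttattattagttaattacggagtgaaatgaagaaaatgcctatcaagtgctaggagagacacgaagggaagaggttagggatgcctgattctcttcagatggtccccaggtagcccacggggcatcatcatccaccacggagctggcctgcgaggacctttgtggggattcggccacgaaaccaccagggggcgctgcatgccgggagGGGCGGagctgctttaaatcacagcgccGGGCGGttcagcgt
Cldn3 promoter, chr5:134985964-134986213, plus strand: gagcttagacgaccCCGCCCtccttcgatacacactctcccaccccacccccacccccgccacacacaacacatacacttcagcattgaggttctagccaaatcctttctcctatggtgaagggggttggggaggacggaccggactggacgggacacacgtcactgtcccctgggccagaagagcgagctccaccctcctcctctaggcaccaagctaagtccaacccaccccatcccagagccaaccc
Cldn4 promoter, chr5:134946935-134947184, minus strand: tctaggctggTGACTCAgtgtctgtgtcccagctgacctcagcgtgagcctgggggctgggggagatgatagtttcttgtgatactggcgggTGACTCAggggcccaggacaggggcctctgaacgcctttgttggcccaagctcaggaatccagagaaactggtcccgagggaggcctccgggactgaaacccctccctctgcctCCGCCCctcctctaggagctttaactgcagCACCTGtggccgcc
Ocln promoter, chr13:100552719-100552968, minus strand: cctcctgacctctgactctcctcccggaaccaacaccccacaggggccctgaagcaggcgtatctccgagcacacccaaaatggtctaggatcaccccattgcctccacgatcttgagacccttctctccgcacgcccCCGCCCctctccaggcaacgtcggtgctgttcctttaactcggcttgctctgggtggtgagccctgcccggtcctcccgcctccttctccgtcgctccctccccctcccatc

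The Cldn1 stretch held 2 GC boxes and no E-box or AP-1 site, while that of Cldn4 held 2 AP-1 sites, an E-box and a GC box. In windows of 300 bases, which add 50 bases after the start, CAGGTG was present in 8 of the 11 windows of the set, which belong to 8 genes (6 of them with a match), and in 20.2% of all 32851 windows. TGANTCA was present in 2 of the 11, of Cldn4 and F11r, and in 7.81% of all windows, and GGGCGG in 8 of the 11 and in 35.7% of all windows. AACNGGTT, the site of grainyhead-like factors, was present in 0 of the 11 and in 2.09% of all windows. The windows of Ocln overlap and share a CAGGTG match. Since the marked motifs were chosen after the sequences were seen, their shares describe the set and are not a test. No matches of different motifs overlapped in these windows. The E-box matches of the set are shown with their neighbouring bases, with the match in capitals, because they occur both in genes that rose and in genes that did not pass the test.
Cldn3, chr5:134986233-134986262: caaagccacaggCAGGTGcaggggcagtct
Cldn4, chr5:134946931-134946960: ctttaactgcagCACCTGtggccgcccttt
Cldn4, chr5:134946906-134946935: cctttcttgttgCAGGTGcaggcaggaaag
Ocln, chr13:100552694-100552723: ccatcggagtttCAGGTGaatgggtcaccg
Ocln, chr13:100552549-100552578: ctaggggctcggCAGGTGggtcccagcgca
Cldn7, chr11:69965312-69965341: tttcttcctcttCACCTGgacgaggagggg
Cldn7, chr11:69965352-69965381: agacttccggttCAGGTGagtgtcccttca
Tjp3, chr10:81291672-81291701: gtcacaaggggtCAGGTGtacagacaggga
Tjp3, chr10:81291267-81291296: cacaaaccctccCACCTGcaggccggcctc
F11r, chr1:171437427-171437456: agttcggggttgCACCTGcgtacggtgagt

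Cldn1 and Tjp1 had no CAGGTG in their windows, and Cldn8 had no window to search. Such a match is a description of the letters, and it does not show that a factor binds there.

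Cldn7, a claudin also found along the basolateral membrane, read 11.79, 11.81 and 11.82 on untrypsinized, 11.83, 11.92 and 11.86 on trypsinized, and 11.88, 11.98 and 11.94 on mock sorted arrays. Its untrypsinized arrays were the lowest, by little, and the other groups overlapped. The change after trypsin was 0.06 (95% interval -0.03 to 0.15, adjusted p = 0.293).

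Cldn8, a claudin of the distal nephron of the kidney, read 11.90, 11.90 and 11.94 on untrypsinized, 11.72, 11.87 and 11.90 on trypsinized, and 11.97, 11.98 and 12.13 on mock sorted arrays. Mock sorted arrays were highest, and trypsinized replicate 1, the array with the highest lymphocyte marker sum, was lowest. Its changes were -0.08 after trypsin (SE 0.061, adjusted p = 0.336) and 0.19 after the mock sort (SE 0.061, adjusted p = 0.136), and without trypsinized replicate 1 they were -0.03 (adjusted p = 0.753) and 0.14 (adjusted p = 0.304).

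The scaffolds moved little. Tjp1 encodes the zonula occludens protein ZO-1, whose PDZ domains hold the tails of claudins. It read 11.57, 11.56 and 11.66 on untrypsinized, 11.69, 11.64 and 11.66 on trypsinized, and 11.61, 11.53 and 11.55 on mock sorted arrays. Only its trypsinized and mock sorted arrays stood apart, with changes of 0.07 after trypsin (adjusted p = 0.256) and -0.10 after the mock sort (SE 0.041, adjusted p = 0.257).

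Tjp3 encodes the related scaffold ZO-3. It read 10.88, 10.89 and 10.83 on untrypsinized, 10.88, 10.86 and 10.90 on trypsinized, and 10.86, 10.87 and 10.79 on mock sorted arrays. All 3 groups overlapped, and its change after trypsin was 0.01 (95% interval -0.07 to 0.10, adjusted p = 0.812). F11r encodes JAM-A, the junctional adhesion molecule of epithelia and platelets. It read 12.13, 12.10 and 12.11, then 12.03, 12.12 and 12.07, then 12.08, 12.14 and 12.14 in the same order of groups. These also overlapped, with a change of -0.04 after trypsin (95% interval -0.12 to 0.05, adjusted p = 0.499).

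The mock sort asked what the passage through the sorter adds to trypsin. None of the 9 genes passed in either direction, with or without the minimum fold (0 of 9; without it 4.67% of all genes were called, 0.466% higher and 4.2% lower, and with it 1.19%, 0.0251% higher and 1.17% lower; of the genes at least as bright as Tjp3, 0.435% were called higher and 4.04% lower without it). At an unadjusted limma p under 0.05, Cldn8 was higher and Tjp1 lower, 2 of 9, where 17.2% of all genes were under that p in either direction. The groups did not overlap for Cldn4 and Cldn8 in the higher direction (2 of 9, against 9.74% of all genes) and for Tjp1 in the lower (1 of 9, against 14.3%). Cldn1 changed by 0.01 (95% interval -0.07 to 0.09), Cldn3 by 0.05 (-0.06 to 0.15), Cldn4 by 0.05 (-0.02 to 0.12) and Ocln by 0.05 (-0.06 to 0.16). These intervals bound the change at well under 1.5-fold without showing that it was absent. With a robust variance trend Cldn8 passed (adjusted p = 0.0367) as the only gene of the set.

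Across both steps, mock sorted against untrypsinized cells, 5 of the 9 genes were called higher and 0 lower with no minimum fold, or 55.6% (39% of all genes were called, 21% higher and 18% lower, and of those at least as bright as Tjp3, 19% higher and 24.5% lower). With the unadjusted p as the rule it was also 5 of 9, where 49.3% of all genes passed. The groups did not overlap for 6 of the 9 in the higher direction and 0 in the lower, against 28.7% and 23.4% of all genes. Cldn1 was higher by 0.29 (SE 0.033, adjusted p = 0.00036), Ocln by 0.27 (SE 0.046, adjusted p = 0.0026), Cldn4 by 0.26 (SE 0.032, adjusted p = 0.000479) and Cldn3 by 0.25 (SE 0.045, adjusted p = 0.00333). Cldn7 was higher by 0.13 (SE 0.040, adjusted p = 0.0357), a call lost without any single one of the untrypsinized arrays, trypsinized replicate 3, or mock sorted replicate 2 or 3 (adjusted p = 0.0525 to 0.118). No gene of the set passed 1.5-fold (0 of 9; 4.47% of all genes were called, 1.08% higher and 3.4% lower), and no 95% interval in any of the 3 comparisons reached 1.5-fold. The comparisons share arrays, so this one is not separate evidence from the trypsin step. As for trypsin, its shares of genes called describe a set chosen with earlier results known.

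**Figure D2:**
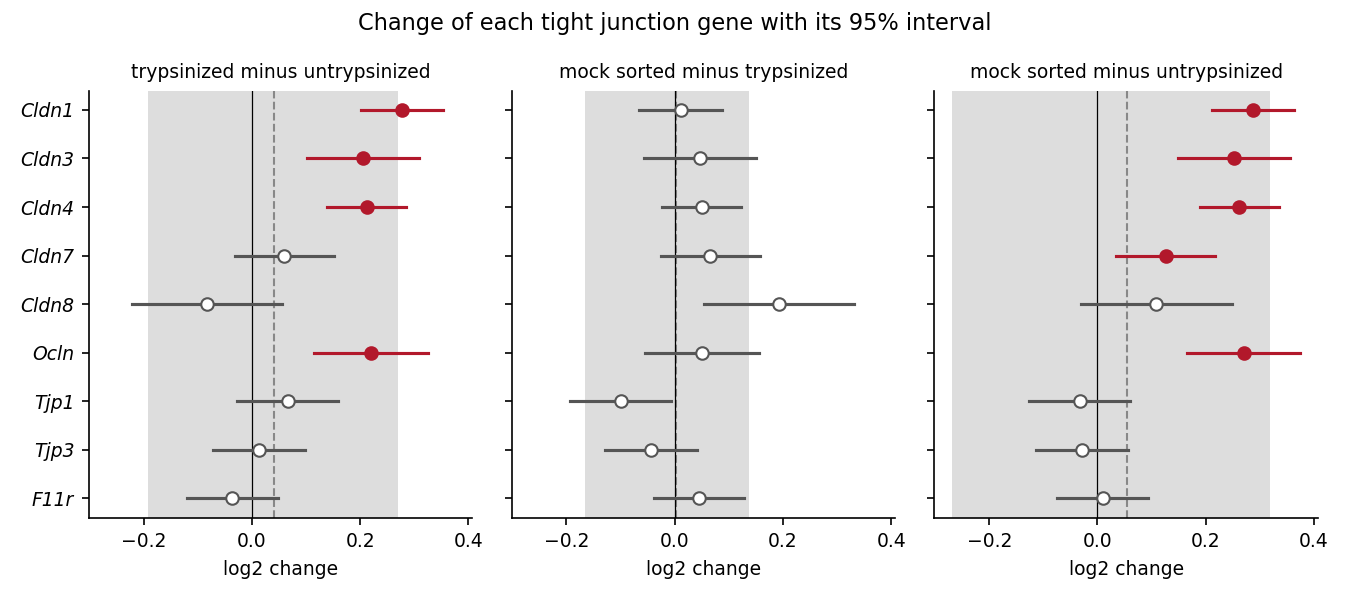
Log2 change of each tight junction gene in the 3 comparisons, with 95% intervals from limma; filled red points passed an adjusted p of 0.05 with no minimum fold, open points did not. The grey band spans the 10th to 90th percentile of all genes and the dashed line is their median. Cldn1 after trypsin, at 0.28, lies just past the 90th percentile of 0.27, and these red points are calls on the intensities as deposited, lost when arrays are given the same median.

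Whether a gene responded differently to the 2 steps was tested as a contrast of its own. None of the 9 passed (0 of 9, where 0.125% of all genes did). Cldn1 came closest, with a mock sort change 0.27 smaller than its trypsin change (SE 0.057, adjusted p = 0.107). At an unadjusted p under 0.05 it was 4 of 9, Cldn1, Cldn4, Cldn8 and Tjp1, where 16.4% of all genes were. The F test for any difference among the 3 groups called 4 of 9, Cldn1 (adjusted p = 0.000589), Cldn4 (0.00111), Ocln (0.00566) and Cldn3 (0.00736), where 33.2% of all genes were called.

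The scaling of arrays sets how these small changes read. On the deposited values the median gene changed by 0.04 after trypsin, and once every array was given the same median intensity it changed by -0.09. Under that scaling Cldn1, Cldn3, Cldn4 and Ocln changed by 0.14, 0.07, 0.08 and 0.09, still upward, and none passed (adjusted p = 0.061, 0.443, 0.309 and 0.301), while Cldn8 was called lower by 0.22 (adjusted p = 0.0487). The split over all genes, 2766 higher and 2289 lower as deposited, became 745 and 5664 with the common median, 1602 and 3370 with quantile normalization over all rows, and 2179 and 2501 with quantile normalization over the tested genes. Over both steps the common median left 0 of 9 higher and called Tjp1 and Tjp3 lower, by 0.18 each (adjusted p = 0.0106 and 0.0275). Under either quantile normalization the same numbers of genes were called as on the deposited values, 4 after trypsin and 5 over both steps. Measured against the median gene, the rise after trypsin over these 4 scalings was 0.24 to 0.34 for Cldn1, 0.17 to 0.27 for Cldn3, 0.17 to 0.23 for Cldn4 and 0.18 to 0.26 for Ocln. On this measure the deposited and common median values are the same by construction, since that scaling shifts all genes of an array alike.

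**Figure D3:**
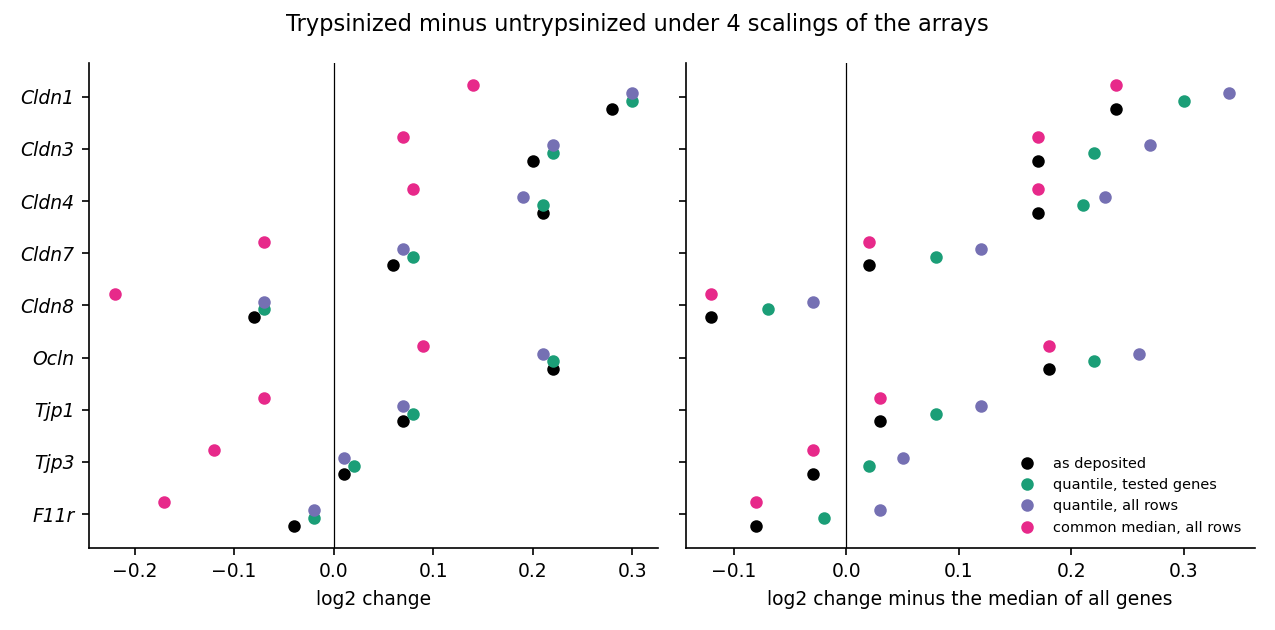
Change of each tight junction gene after trypsin under 4 scalings of the arrays, as the log2 change itself (left) and after subtracting the median change of all genes (right). Cldn7, Tjp1 and Tjp3 lie above 0 on the left in the deposited values and below it with a common median, while Cldn1, Cldn3, Cldn4 and Ocln lie above 0 on both sides under every scaling shown. On the right, the deposited and common median values are the same by construction.

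A ratio of 2 genes on the same array is the same on the deposited values and with equal array medians, apart from the pseudocount, but not under quantile normalization. Epcam, a surface glycoprotein of epithelial cells, was at 13.07 ± 0.029 in untrypsinized, 13.04 ± 0.029 in trypsinized and 13.14 ± 0.038 in mock sorted arrays, and its change after trypsin was -0.03 (SE 0.037, adjusted p = 0.603). Relative to Epcam on the same array, the log2 ratio of Cldn1 went from -1.15 ± 0.03 to -0.84 ± 0.03, that of Cldn4 from 0.28 ± 0.04 to 0.52 ± 0.05, that of Ocln from -1.96 ± 0.04 to -1.72 ± 0.06, and that of Cldn3 from -0.97 ± 0.05 to -0.74 ± 0.06 (mean ± SD, n = 3, described without a test). For these 4 genes the untrypsinized arrays did not overlap the trypsinized ones. The same held for Cldn7, whose own change did not pass and whose ratio went from -1.26 ± 0.03 to -1.17 ± 0.04. The share of all genes with ratios separated in this way was not computed. After the mock sort the ratios of Cldn1, Cldn3, Cldn4 and Ocln each moved by -0.08 to -0.05. The ratio depends on the reference gene: relative to Cdh1, which itself rose by 0.23 after trypsin, Cldn1 changed by 0.05, Cldn3 by -0.02, and Cldn4 and Ocln by -0.01 each. The luminal marker list had 2 of 11 genes called higher after trypsin (13.9% of all genes). Its median change was 0.07, the same as that of the 9 junction genes. Over both steps 7 of 11 were higher and 1 lower (21% and 18% of all genes), at a median of 0.14, against 0.13 for the junction genes. With equal array medians the luminal counts were 0 higher and 1 lower after trypsin (745 and 5664 of all 19938 genes). Over both steps they were 1 higher and 1 lower (1233 and 6793 of all genes). With a robust variance trend 6 were higher and 1 lower after trypsin, and leaving out 1 array gave 1 to 2 called after trypsin and 5 to 8 over both steps. Of 12 endothelial markers, 11 were called lower after trypsin and 12 after the mock sort, with medians of -0.45 and -1.02. Of all genes, 11.5% and 4.2% were called lower at these steps. The basal list had 4 of 10 called lower at each step. With equal array medians the basal counts were 7 after trypsin and 2 after the mock sort (5664 and 814 of all 19938 genes). The basal count after the mock sort was also 2 without any single trypsinized or mock sorted array. It was 1 without both replicate 1 arrays. The lymphocyte list had 2 of 8 called higher after trypsin and 0 of 8 after the mock sort (13.9% and 0.466% of all genes). Its trypsin count was 5 without both replicate 1 arrays, 7 with the replicate number as a block, 4 with equal array medians, and 0 with a robust variance trend, without trypsinized replicate 1, or without any single untrypsinized array. The part of these shifts in cell makeup in the junction results was not tested.

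Other claudins gave a mixed picture. Of 18 measured, 2 were called higher and 4 lower after trypsin (13.9% and 11.5% of all genes). After the mock sort 2 were higher and 1 lower (0.466% and 4.2% of all genes). Over both steps 5 were higher and 3 lower (21% and 18% of all genes), with a median near that of all genes (0.08 against 0.05). With equal array medians 1 was higher and 7 lower after trypsin (745 and 5664 of all 19938 genes). Over both steps it was then 1 higher and 6 lower (1233 and 6793 of all genes). After the mock sort only 1 was called, lower, with the replicate number as a block, which pairs these arrays, and the count was also 1 without both replicate 1 arrays, any single trypsinized array, or mock sorted replicate 2 or 3. Cldn5, the claudin of vessel walls, read 11.11, 11.31 and 11.37 on untrypsinized, 10.68, 10.69 and 10.70 on trypsinized, and 9.49, 9.25 and 9.36 on mock sorted arrays. Its groups stood apart at each step. Cldn5 fell by 0.57 after trypsin (SE 0.078, adjusted p = 0.00234) and by 1.32 after the mock sort (SE 0.078, adjusted p = 0.000118), the 1 claudin past 1.5-fold, and it moved with the endothelial markers given above. Cldn23, an epithelial claudin, rose by 0.49 after trypsin (SE 0.056, adjusted p = 0.00112) and was 0.02 higher after the mock sort (adjusted p = 0.912). Cldn18, the claudin of lung and stomach epithelium, rose by 0.23 (SE 0.041, adjusted p = 0.00676), which did not pass after quantile normalization over all rows (0.15, adjusted p = 0.0675) or with equal array medians (0.09, adjusted p = 0.266). Cldn2, a cation pore, was lower after trypsin (adjusted p = 0.00646), but its group means, 8.29 in untrypsinized and 8.02 in trypsinized cells, lay near the olfactory yardstick of 8.2, and the size of the difference is not interpretable.

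Among the other 12 membrane proteins of the junction, 3 were called higher and 5 lower after trypsin (13.9% and 11.5% of all genes). Over both steps 4 were higher and 5 lower (21% and 18% of all genes). With equal array medians 0 were higher and 6 lower after trypsin (745 and 5664 of all 19938 genes). Over both steps it was then 1 higher and 7 lower (1233 and 6793 of all genes). Jam2 and Jam3, relatives of F11r found in vessel walls and stroma, and Esam, an endothelial adhesion molecule, were among those that fell. Over both steps Jam2 fell by 1.70 (SE 0.070, adjusted p = 2.36e-06) and Esam by 1.69 (SE 0.073, adjusted p = 2.7e-06), while F11r differed by 0.01 (95% interval -0.07 to 0.09, adjusted p = 0.854). Jam2 read 11.96, 12.11 and 12.15 on untrypsinized, 11.51, 11.59 and 11.47 on trypsinized, and 10.44, 10.25 and 10.43 on mock sorted arrays. No array of one group overlapped another group. Jam3, and Ildr2 of the angulin family of tricellular junctions, were also lower over both steps (adjusted p = 2.05e-05 and 8.75e-05), from 8.71 to 7.76 and from 8.84 to 8.06. Their mock sorted means were below the olfactory yardstick, and the sizes of these differences are not interpreted. Marveld2, the occludin relative called tricellulin, lies outside the naming rule and was picked after its values were seen. It was higher by 0.32 after trypsin (SE 0.049, adjusted p = 0.00361) and by 0.39 over both steps (SE 0.049, adjusted p = 0.000532). With equal array medians its call after trypsin was lost, as 0 of the 12 were then called higher.

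Of 22 scaffold and polarity genes measured, 5 were called higher and 3 lower after trypsin (13.9% and 11.5% of all genes). After the mock sort it was 0 and 1 (0.466% and 4.2% of all genes), and over both steps 9 and 5 (21% and 18%). None was past 1.5-fold (0 of 22). With equal array medians 1 was higher and 4 lower after trypsin (745 and 5664 of all 19938 genes). Over both steps it was then 0 higher and 7 lower (1233 and 6793 of all genes), with 2 past 1.5-fold. Over both steps 1 was past 1.5-fold after quantile normalization over all rows or without untrypsinized replicate 2. Amotl2, an angiomotin that binds YAP, rose by 0.34 after trypsin (SE 0.048, adjusted p = 0.00276). The multi-PDZ scaffold gene Mpdz fell by 0.33 (SE 0.052, adjusted p = 0.00408), and the polarity gene Pard6g fell by 0.21 after trypsin (SE 0.041, adjusted p = 0.00859) and by 0.29 after the mock sort (SE 0.041, adjusted p = 0.0049); without replicate 1 of both groups the latter did not pass (adjusted p = 0.06). Magi1, a scaffold of the membrane-associated guanylate kinase family, fell by 0.16 after trypsin (SE 0.038, adjusted p = 0.0208), and this call was lost without any single untrypsinized array 2 or 3 or any single trypsinized array (adjusted p = 0.0533 to 0.0611).

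The adherens junction lies just below the tight junction. Of 12 genes, 2 were called higher and 1 lower after trypsin, near the 13.9% and 11.5% of all genes. After the mock sort 0 were called (0.466% and 4.2% of all genes). With the unadjusted limma p it was 1 higher and 1 lower (17.2% of all genes in either direction). Over both steps 3 were higher and 2 lower (21% and 18% of all genes). Cdh1, E-cadherin, read 12.76, 12.76 and 12.78 on untrypsinized, 12.98, 12.99 and 13.01 on trypsinized, and 13.03, 13.08 and 13.06 on mock sorted arrays. The 3 groups did not overlap. It rose by 0.23 after trypsin (SE 0.032, adjusted p = 0.00275), and Jup, the plakoglobin gene, rose by 0.17 (SE 0.035, adjusted p = 0.0117). With a common median these were 0.09 and 0.03, and neither passed (adjusted p = 0.185 and 0.675). Over both steps Nectin4 was higher by 0.24 (adjusted p = 0.007) and Nectin3 lower by 0.17 (adjusted p = 0.0135), both nectins being adhesion molecules of this junction. With equal array medians Nectin4 did not pass (0.09, adjusted p = 0.261). Over both steps 1 of the 12 genes was then higher and 7 lower (1233 and 6793 of all 19938 genes). Nectin3 did not pass after quantile normalization over the tested genes (-0.12, adjusted p = 0.0569) or without mock sorted replicate 2 (adjusted p = 0.0509).

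Among 17 regulators of epithelial junction genes, 6 were called higher and 3 lower after trypsin (13.9% and 11.5% of all genes). Over both steps 10 were higher and 6 lower (21% and 18% of all genes). Ovol1, a zinc finger factor that holds cells epithelial, rose by 0.44 after trypsin (SE 0.052, adjusted p = 0.00126), and Esrp2, an epithelial splicing factor, by 0.24 (SE 0.032, adjusted p = 0.00197), a call lost with equal array medians (0.11, adjusted p = 0.1). The count of regulators over both steps was then 3 higher and 6 lower (1233 and 6793 of all 19938 genes). The mesenchymal factors Zeb2 and Twist1 fell by 0.70 (SE 0.105, adjusted p = 0.00341) and 0.65 (SE 0.076, adjusted p = 0.00126). Zeb2 read 10.93, 10.95 and 11.11 on untrypsinized, 10.45, 10.21 and 10.23 on trypsinized, and 9.73, 9.35 and 9.53 on mock sorted arrays. Its fall continued with the mock sort, by 0.76 (SE 0.105, adjusted p = 0.0045). Zeb2 and Twist1 are also made by stromal and vessel cells, whose markers fell in the same arrays, and the part of those cells in the falls was not tested. A link between the fall of Zeb2 and the levels of the 9 junction genes was not tested either.

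**Figure D4:**
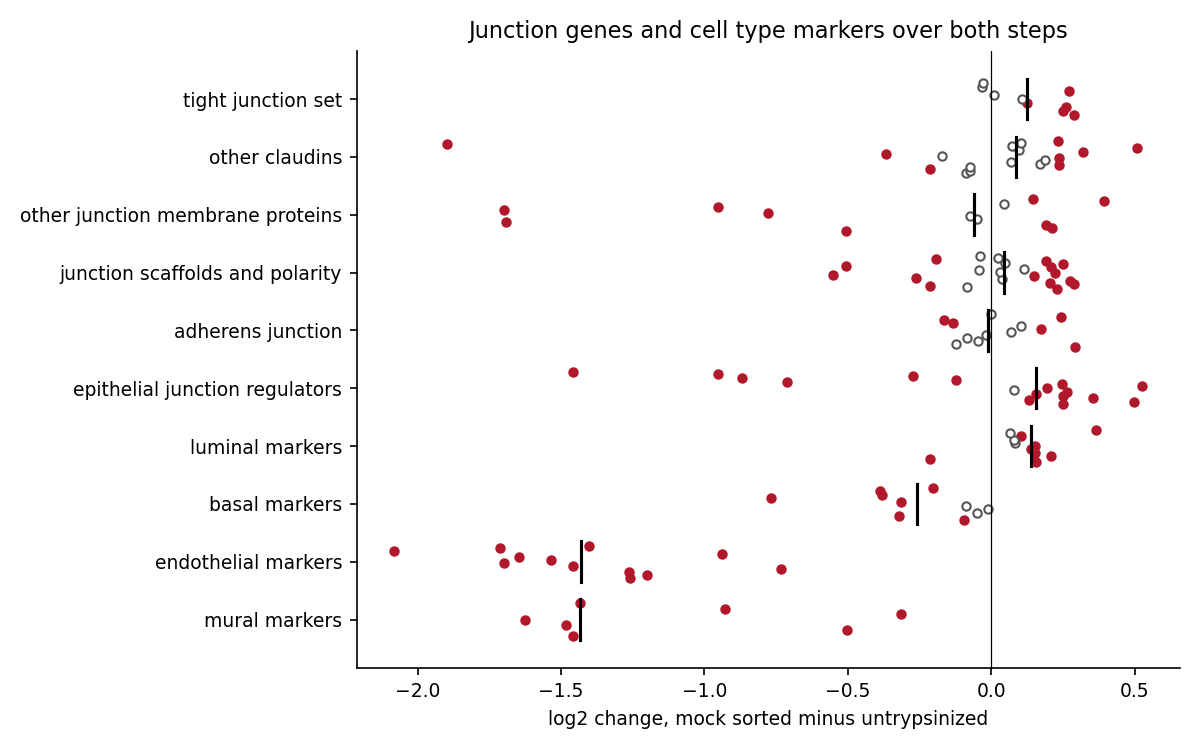
Log2 change over both steps of every measured gene in 10 groups of genes; each point is a gene, filled red where it passed an adjusted p of 0.05 with no minimum fold, and black bars are medians. The 9 tight junction genes span -0.03 to 0.29, the endothelial markers -2.08 to -0.73, and Cldn5 is the point at -1.90 among the other claudins.

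Likeness to the set was measured as Pearson's r over the 9 arrays with the mean log2 profile of the 9 genes, among 9655 other named genes brighter than the median gene, with the arrays falling into 3 groups. Among the 5 highest were Desi1, of a desumoylating peptidase (r = 0.992), Ptpn18, a tyrosine phosphatase (0.991), Wee1, a cell cycle kinase (0.991), and Tfap2a, the AP-2 alpha transcription factor (0.989). After trypsin Tfap2a rose by 0.23 (SE 0.037, adjusted p = 0.00429), while Desi1 changed by 0.08 and did not pass (adjusted p = 0.0816). Within the set r was 0.982 for Cldn4, 0.974 for Ocln, 0.956 for Cldn3, 0.948 for Cldn1 and 0.885 for Cldn7. It was 0.336 for Cldn8, 0.107 for F11r, -0.143 for Tjp1 and -0.222 for Tjp3. The mean profile thus followed Ocln and the claudins other than Cldn8 more than Cldn8, F11r and the scaffolds. Each gene is part of that mean.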

How the data were processed

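RNA of 9 mouse mammary cell preparations was measured on Affymetrix whole-transcript arrays, 3 per group. The authors deposited linear intensities in 35512 rows. The submitters' processing notes name limma, and the sources used here do not give the background correction, probe summary or array scaling. Of the rows, 21789 had 1 gene symbol in the platform annotation, which can be old, 1621 had several and 12102 were unnamed; symbols of 21698 were updated by gene number with RefSeq (GRCm38.p6). The row with the highest mean stood for a gene. The gene called Pals1 in current use is listed as Mpp5. Magi2 and Cldn25 had no single-symbol row.

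One limma 3.58.1 model (R 4.3.3), with a mean per group over all 9 arrays, was fitted to log2 of intensity plus 1, with Benjamini-Hochberg adjustment over 19938 genes. The fit was tested on simulated data with known changes. Same-numbered trypsinized and mock sorted arrays deviated together (r = 0.53, 0.29 and 0.29 over genes) and were taken as paired from these values. Same-numbered untrypsinized and trypsinized arrays gave no sign of pairing (-0.04 to 0.11). For untrypsinized and mock sorted arrays (0.06 to 0.32) pairing is not settled. The main model had no block for the replicate number. The 9 genes and all gene lists were chosen with earlier results of these data known. All 9 genes, up to 4 genes per list with the smallest p, and the 5 genes most alike the mean profile were to be named; 1 of these is not reported here. Alternatives covered array scaling, the pseudocount, a filter on dim genes, the variance model and leaving out arrays.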

Additional observations from a re-analysis of the deposited data

How the results depend on the processing

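The changes and counts from limma were recomputed under other scalings, pseudocounts, filters, variance models and sample sets, and under 2 settings chosen after seeing the data, a replicate block fitted to the compared groups only and a fit without replicate 1 of both digested groups. At 1.5-fold the count stayed at 0 of 9 in all 3 comparisons under every alternative run. Without a minimum fold, giving every array the same median left 1 gene called after trypsin (Cldn8, lower) and 2 over both steps (Tjp1 and Tjp3, lower). After the mock sort, the unadjusted p called 2 (1 higher, 1 lower) and the robust variance trend called 1. Leaving out 1 array at a time gave 3 to 4 genes after trypsin, 0 to 0 after the mock sort and 4 to 5 over both steps; Cldn3 after trypsin was the call lost without trypsinized replicate 3 (0.19, adjusted p = 0.053), and Cldn7 over both steps held in 13 of 22 settings.

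With the replicate block on all 9 arrays the counts were 4, 0 and 5, and no call among the 9 genes changed. The deviations of same-numbered untrypsinized and trypsinized arrays gave no sign of pairing, and for untrypsinized and mock sorted arrays it is not settled. With the replicate block on only the compared groups the trypsin count was 1 (Cldn1) and that over both steps 4. The mock sort count, for arrays taken as paired from their values, was 0 of the 9 genes in that fit as well. In that trypsin fit Cldn3, Cldn4 and Ocln had limma adjusted p = 0.096, 0.0699 and 0.066. The cause of these losses was not tested.

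Some directions turned. With the same median these were, after trypsin, Cldn7 (-0.074), Tjp1 (-0.068) and Tjp3 (-0.12), after the mock sort Cldn1 (-0.004), Cldn18 (-0.008) and Jup (-0.007), and over both steps Cldn7 (-0.023, called on the deposited values), Cldn8 (-0.04) and F11r (-0.14). Quantile normalization turned Nectin3 after the mock sort (0.022 over all rows, 0.033 over the tested genes) and Tjp3 over both steps (0.012, tested genes). Without replicate 1 of both digested groups Cldn1 (-0.009) and Cldn23 (-0.01) turned after the mock sort. Leaving out 1 array gave, after the mock sort, -0.036 to 0.057 for Cldn23, -0.018 to 0.029 for Cldn18, -0.003 to 0.024 for Jup and -0.031 to 0.018 for Nectin3; it gave -0.003 to 0.024 for Tjp3 after trypsin and -0.001 to 0.028 for F11r over both steps. The number of arrays, 3 per group, limits the precision.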
